A study of Mus musculus with 9 samples.

Results

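Clusters of distal open chromatin regions, 3 or more that each lie within 25 kb of the next, were examined in the heart-forming tissue of the early mouse embryo. ATAC-Seq, in which the Tn5 transposase cuts and tags open DNA, had been applied to the pharyngeal mesoderm and the hearts of mouse embryos at E8.75, the stage of 6 somites, to ask how loss of Isl1 or of the remodeler Brg1 affects chromatin opening. The series holds 9 libraries in 3 groups of 3 (genotypes wt, Isl1-/- and Isl1Cre+/-/ Brg1fl/fl). The values used here are 1 list of the regions common to the 3 wild-type libraries, in mm9 coordinates, with a position, an assigned gene and a distance to its transcription start site (TSS) for each region. The list has no height or value per library, so no value below has a replicate error, no genotype was compared, and the read depth is unknown. The wild-type libraries carry no further label of strain or allele, and the dissected tissue holds several cell types that the list does not separate. The other 2 groups were not analysed here.

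Of 17164 distinct regions, 6740 had their center more than 10 kb from the assigned TSS and are called distal. Neighboring distal regions were joined where at most 25 kb separated them, and 262 distal regions (3.89%, 95% Wilson interval 3.45 to 4.38%) fell into 79 clusters of 3 or more. Of the other 6478 distal regions, 5336 stood alone and 1142 formed 571 pairs. Members were chosen by the measured positions and distances alone, so cluster sizes, gaps, spans and distances are a description and carry no test. Wilson intervals cover counting error over regions or genes and not variation between embryos, and regions of 1 cluster share a locus, so intervals over regions are too narrow.

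Distal accessible regions include enhancers, which bind transcription factors and act on promoters over long distances, as well as insulators and promoters that the gene assignment missed. Developmental genes often have several enhancers spread over introns and gene deserts, which can act in different tissues or overlap in activity. Genes for tRNAs and for some small nuclear and nucleolar RNAs can occur as arrays of copies with compact promoters of their own. A group of neighboring open regions can therefore be a set of enhancers, a set of small promoters, or both, and the list itself does not tell these apart.

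The sequences below are 300 bp of NCBIM37, the same build as mm9, at the midpoint of the region nearest the TSS in each cluster assigned to a listed cardiac or TALE gene. They are shown because the regions were assigned to genes of those 2 lists, although the Tgif1 window lies inside another gene, Dlgap1. Capitals mark matches on either strand to 8 motifs, AGATAA (bound by the GATA family), CTAATG (LIM-homeodomain factors such as Isl1), TNAAGTG (Nkx2 factors), TGACAG (Meis and other TALE factors), AGGTGT (T-box factors), CATCTG (Hand and Twist factors), CATTCC (TEAD factors) and TAAAAATA (Mef2 factors), and a window without capitals holds none of them.
Isl1 (chr13:117286099-117286398, plus strand): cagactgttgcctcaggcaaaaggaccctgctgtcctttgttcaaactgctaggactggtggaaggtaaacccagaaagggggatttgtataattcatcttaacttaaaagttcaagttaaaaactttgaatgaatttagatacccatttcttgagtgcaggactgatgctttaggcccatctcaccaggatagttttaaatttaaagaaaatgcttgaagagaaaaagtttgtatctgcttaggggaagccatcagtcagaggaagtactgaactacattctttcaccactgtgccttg
Tbx20 (chr9:24748352-24748651, plus strand): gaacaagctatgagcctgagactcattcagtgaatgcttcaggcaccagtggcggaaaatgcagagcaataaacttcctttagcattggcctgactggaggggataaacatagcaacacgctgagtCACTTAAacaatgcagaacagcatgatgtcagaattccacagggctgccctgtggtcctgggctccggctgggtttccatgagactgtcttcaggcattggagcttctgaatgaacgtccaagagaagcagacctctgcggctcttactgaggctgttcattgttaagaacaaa
Tgif1 (chr17:71143656-71143955, plus strand): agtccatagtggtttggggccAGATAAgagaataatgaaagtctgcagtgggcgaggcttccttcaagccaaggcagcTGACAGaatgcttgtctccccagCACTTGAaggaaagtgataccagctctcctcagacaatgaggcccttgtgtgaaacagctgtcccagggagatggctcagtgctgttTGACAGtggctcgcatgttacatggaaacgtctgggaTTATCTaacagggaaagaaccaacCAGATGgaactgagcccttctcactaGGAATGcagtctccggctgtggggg
Meis2 (chr2:115846375-115846674, plus strand): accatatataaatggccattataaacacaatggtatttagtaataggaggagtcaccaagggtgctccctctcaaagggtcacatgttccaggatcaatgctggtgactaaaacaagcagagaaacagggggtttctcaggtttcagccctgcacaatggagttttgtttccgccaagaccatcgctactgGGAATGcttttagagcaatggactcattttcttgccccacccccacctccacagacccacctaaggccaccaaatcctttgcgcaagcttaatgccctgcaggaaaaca
Pknox2 (chr9:36914695-36914994, plus strand): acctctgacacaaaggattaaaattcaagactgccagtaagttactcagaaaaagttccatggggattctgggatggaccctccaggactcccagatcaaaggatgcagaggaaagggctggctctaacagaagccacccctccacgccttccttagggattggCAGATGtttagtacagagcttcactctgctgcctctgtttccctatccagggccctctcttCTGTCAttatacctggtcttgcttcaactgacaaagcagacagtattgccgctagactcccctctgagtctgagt

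The Tgif1 window held matches of 5 of the 8 motifs, with AGATAA at positions 22 and 226 and TGACAG at positions 79 and 189, counted from 1 at its left end. The Isl1 window held none of the 8, and in its cluster only the region 214 kb upstream had a match, to TNAAGTG, at positions 21 and 181. The Tbx20 window held TNAAGTG once. A match is a string of letters and not a binding site, and a window without one says only that these letters do not occur in it. In 300 bp windows at regions within 1 kb of a TSS, the shares that held each motif were 3.24% for AGATAA, 2.95% for CTAATG, 5.86% for TNAAGTG, 14.3% for TGACAG, 8.17% for AGGTGT, 8.97% for CATCTG, 9.26% for CATTCC and 0.451% for TAAAAATA. Among members these shares were 13.4, 10.7, 13.7, 26.3, 6.87, 21.4, 24.4 and 0.382%, in the same order. In the other distal regions they were 15.6, 12.1, 14.97, 24.5, 11.1, 22.2, 23.0 and 1.64%, above the share in members for 6 of the 8 motifs.

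The next sequences come from the cluster with the most regions, assigned to Trim27 and Gpx5 on chromosome 13. Each of its 7 regions held a loose form of the B box, the promoter element inside tRNA genes that recruits the RNA polymerase III machinery. The form searched reads GGTTC, any base, A, any pair of bases and CC, on either strand, and is called the looser B box. The 75 bp around each match, read on the strand of the box, are shown with the box in capitals.
Trim27/Gpx5 region 1 (chr13:21292107-21292181, plus strand): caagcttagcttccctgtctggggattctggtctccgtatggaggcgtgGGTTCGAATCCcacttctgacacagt
Trim27/Gpx5 region 2 (chr13:21307323-21307397, minus strand): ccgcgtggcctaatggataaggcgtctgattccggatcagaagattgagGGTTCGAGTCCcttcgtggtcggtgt
Trim27/Gpx5 region 3 (chr13:21314456-21314530, plus strand): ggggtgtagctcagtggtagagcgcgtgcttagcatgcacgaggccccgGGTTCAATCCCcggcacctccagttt
Trim27/Gpx5 region 4 (chr13:21325915-21325989, plus strand): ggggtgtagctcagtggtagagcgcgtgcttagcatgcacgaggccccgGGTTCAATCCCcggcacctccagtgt
Trim27/Gpx5 region 5 (chr13:21346090-21346164, plus strand): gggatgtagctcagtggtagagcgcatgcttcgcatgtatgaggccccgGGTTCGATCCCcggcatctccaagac
Trim27/Gpx5 region 6 (chr13:21351638-21351712, plus strand): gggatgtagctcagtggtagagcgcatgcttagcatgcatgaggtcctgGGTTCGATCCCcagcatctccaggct
Trim27/Gpx5 region 7 (chr13:21367828-21367902, plus strand): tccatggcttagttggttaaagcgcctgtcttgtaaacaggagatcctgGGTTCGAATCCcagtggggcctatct

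Regions 3 and 4 differed at 1 of the 75 bases, and regions 3 to 6 at 1 to 11 bases in pairs. Every other pair of the 7 differed at 33 to 47 bases, so the cluster is not 1 repeated unit throughout. The stricter form GTTCGANTC stood in 3 of the 7 regions (1, 2 and 7) and not in the other 4. The looser form was chosen after the values of the cluster were seen, and no annotation of tRNA genes was used.

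Matches also stood in all 3 regions of the Terc/BC107364 cluster on chromosome 3 and in 2 of 3 regions of the Btn2a2/Hist1h4h cluster on chromosome 13, at a histone gene locus. Terc encodes the RNA template of telomerase. The first match of each region is shown in the same way.
Terc/BC107364 region 1 (chr3:96206144-96206218, plus strand): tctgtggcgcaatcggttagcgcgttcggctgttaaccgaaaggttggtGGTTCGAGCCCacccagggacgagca
Terc/BC107364 region 2 (chr3:96232160-96232234, plus strand): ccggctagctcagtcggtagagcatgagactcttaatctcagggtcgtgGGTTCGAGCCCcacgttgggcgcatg
Terc/BC107364 region 3 (chr3:96239896-96239970, plus strand): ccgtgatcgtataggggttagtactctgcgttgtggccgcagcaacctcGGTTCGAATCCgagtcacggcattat
Btn2a2/Hist1h4h region 1 (chr13:23592387-23592461, minus strand): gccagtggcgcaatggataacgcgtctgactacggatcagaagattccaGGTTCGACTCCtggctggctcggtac
Btn2a2/Hist1h4h region 3 (chr13:23609072-23609146, plus strand): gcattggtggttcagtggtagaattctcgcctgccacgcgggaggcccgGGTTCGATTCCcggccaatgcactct

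Over all members, the looser B box occurred in 19 of 262 regions (7.25%, interval 4.69 to 11.0%), compared with 192 of 6478 other distal regions (2.96%, interval 2.58 to 3.41%) and 443 of 9083 regions within 1 kb of the assigned TSS (4.88%, interval 4.45 to 5.34%). These shares are over whole regions, which differ in width. A match is a string of letters that was not checked against tRNA genes, so they are not shares of tRNA genes. The looser form was chosen with these clusters in view, and the regions of the 3 clusters shown are counted among the members. Without their 13 regions it occurred in 7 of 249 members (2.81%, interval 1.37 to 5.69%), with the share of the other distal regions inside the interval. The stricter and partly overlapping GTTCGANTC occurred in 7 members (2.67%), in 47 other distal regions (0.726%) and in 172 regions within 1 kb (1.89%), and in 1 of 249 members without the 3 clusters. Outside the 3 clusters above, the looser B box occurred in 2 regions of the Jam3 cluster and in 1 region each of 5 other clusters.

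In a further 2 clusters each of the 4 regions lay at an annotated small RNA gene. In the Mreg/Pecr cluster on chromosome 1, 4 regions had their midpoint 16 to 276 bp from a GENCODE start of the snRNA type, 1 of them named U2, an RNA of the spliceosome. In the Tex14 cluster on chromosome 11, the 4 regions were 86 to 196 bp from starts named U3, a small nucleolar RNA needed to process ribosomal RNA. The first 60 bases of the 4 genes were identical within each cluster, and 1 copy of each is shown, read on the strand of the gene.
U2 (chr1:72272814-72272873, plus strand): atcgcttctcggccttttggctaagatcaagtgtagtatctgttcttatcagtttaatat
U3 (chr11:87256739-87256798, plus strand): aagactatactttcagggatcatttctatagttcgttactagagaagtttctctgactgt

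The 4 regions of the Mreg/Pecr cluster were 1646, 1598, 1423 and 2139 bp wide and lay 14.0, 24.7 and 32.0 kb upstream of Mreg and 29.0 kb downstream of the Pecr TSS. Mreg acts in pigment organelle transport, and Pecr is a peroxisomal reductase of fatty acid metabolism. Between 10.6 and 25.6% of their 31-base words occur more than once in the genome, and 10.1 to 19.4% of the words of a region recurred in another region of the cluster. The Tex14 regions were 1516, 1731, 1391 and 1104 bp wide, at 15.8, 21.2, 34.9 and 43.9 kb downstream of the TSS of Tex14, a gene of germ cell bridges. Between 38.9 and 74.8% of their words were repeated in the genome and 32.7 to 50.2% within the cluster. Reads from identical stretches cannot be assigned to 1 copy, so the copies cannot be told apart over those stretches.

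**Figure D1:**
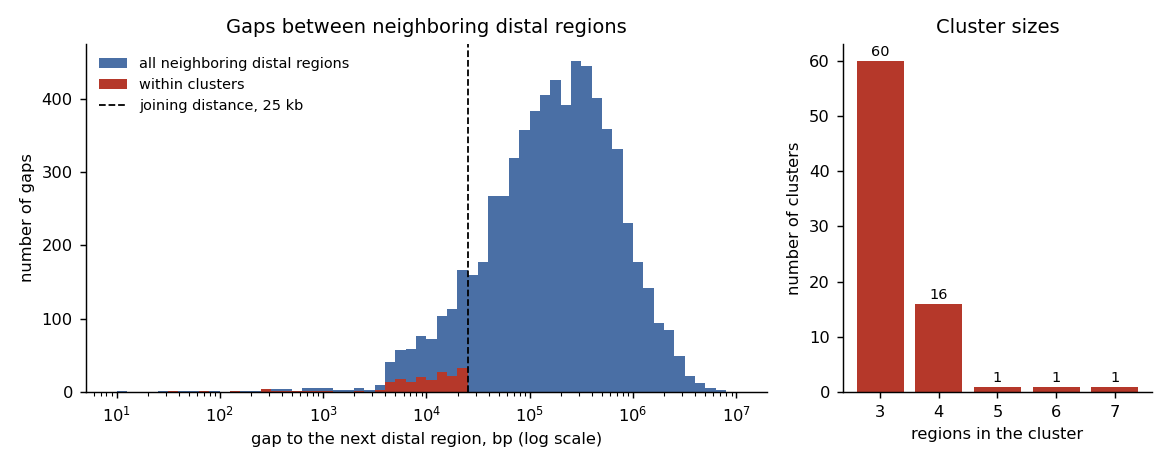
Left, gaps between neighboring distal regions in bp on a log scale, for all 6719 gaps (blue) and for the 183 gaps inside clusters (red), with the joining distance of 25 kb as a dashed line. Right, the number of clusters by number of regions, 60 with 3 regions, 16 with 4 and 1 each with 5, 6 and 7.

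Most clusters were small. Of the 79 clusters, 60 held 3 regions, 16 held 4, and 1 each held 5, 6 and 7. The median gap between all neighboring distal regions was 183841 bp, and 754 of 6719 gaps were within the joining distance. Inside clusters the median gap was 11447 bp, with quartiles of 6126.5 and 17347.5 bp and extremes of 38 and 24837 bp. Clusters spanned 7663 to 76882 bp, with a median of 31341 bp, of which the regions covered a median of 11.6% (4.68 to 43.1%). In 12 of the 183 gaps the regions were at most 1 kb apart, as in the Lamp5 (38 bp), 1700006H21Rik (67 bp) and Meis2 (147 bp) clusters. Counting such neighbors as 1 region, an alternative added after the data were seen, left 69 clusters with 230 regions. Clusters of 3 regions with such a gap were lost, among them Meis2 (147 bp), Acvr1 (320 bp) and Notch2 (725 bp). No cluster had a non-distal region of the list between its members.

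Members just inside the joining distance were the Terc pair, at a gap of 24837 bp, and the Pole4/Hk2 pair, at 24737 bp. The nearest pairs left apart were at Pappa (25168 bp), Arglu1 and 4933430N04Rik (25435 bp) and Mir99ahg (25471 bp). The members nearest to their TSS belonged to Notch2 (11110 bp), Acr (11429 bp) and Fabp6 (11592 bp). Just outside that limit lay regions of Selenow (9974 bp), Fam83a (9968 bp) and Gm15446 (9936 bp). The median distance of members to the assigned TSS was 60.5 kb, with quartiles of 33.3 and 109.5 kb, and 74 members were beyond 100 kb and 14 beyond 300 kb.

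**Figure D2:**
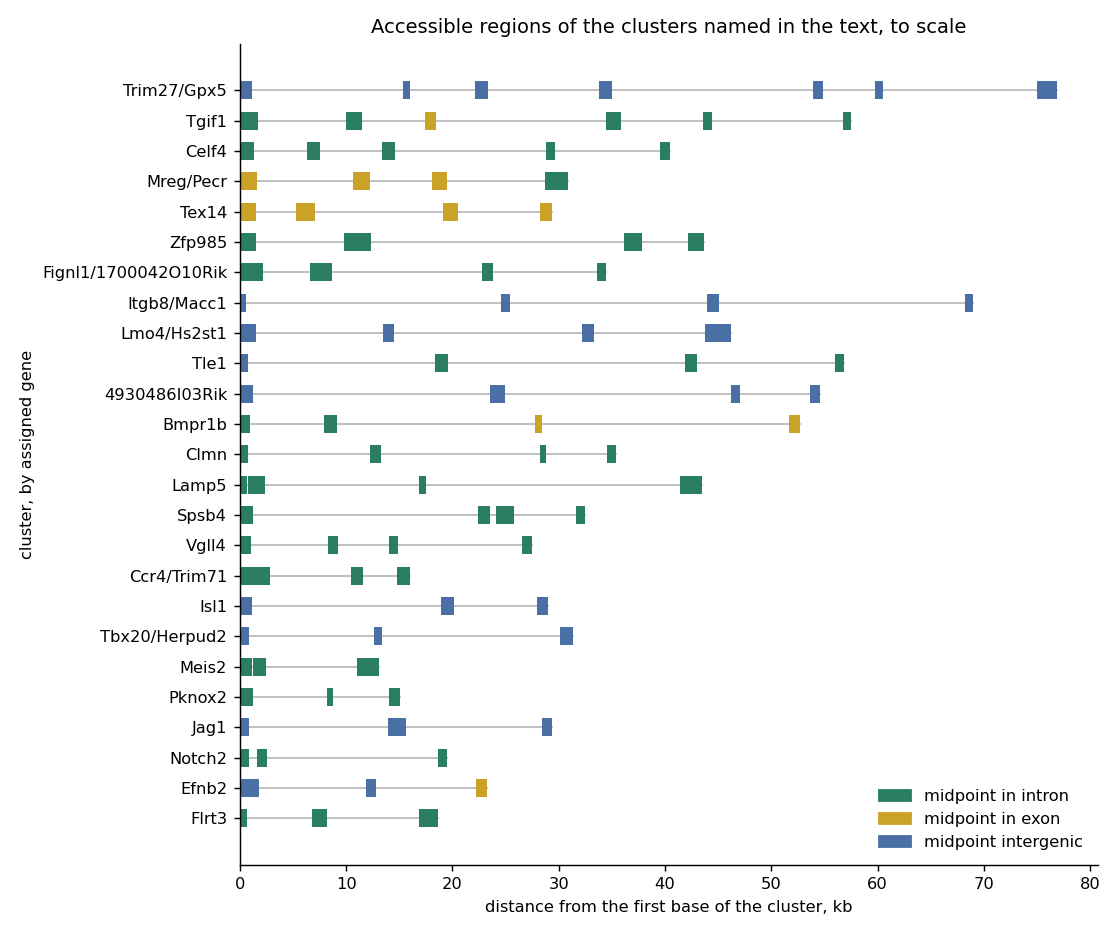
Regions of 25 clusters drawn to scale, as distance in kb from the first base of each cluster, colored by the place of the region's midpoint in the GENCODE annotation. The Trim27/Gpx5 cluster runs over 76.9 kb with its 7 regions intergenic, while the Notch2, Meis2 and Pknox2 clusters lie within introns and the Isl1 and Jag1 clusters between genes.

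The Trim27/Gpx5 cluster (chr13:21291660-21368541) also had the longest span of the 79 clusters, 76882 bp, and the most covered bases, 7905. Its 7 regions were 1166, 636, 1281, 1234, 968, 736 and 1884 bp wide, all intergenic. The first 4 were assigned to Trim27, an E3 ubiquitin ligase, at 20.4 to 54.3 kb, and the last 3 to Gpx5, a glutathione peroxidase of the epididymis, at 17.0 to 38.5 kb, all downstream. Their CpG frequency was 2.52 to 4.63 per 100 bp, above the median of 1.34 over members in each of the 7. Between 0.809 and 4.96% of their 31-base words were repeated in the genome, and at most 3.65% of the words of a region recurred in another region of the cluster.

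The 6 regions assigned to Tgif1 formed the second cluster by number of regions (chr17:71086704-71144193, 57490 bp). Tgif1 encodes a TALE homeodomain repressor that limits TGF-beta and retinoic acid responses. From the nearest to the farthest, the regions lay 52.3, 65.4, 74.3, 91.5, 98.7 and 108.5 kb downstream of the TSS and were 777, 868, 1393, 1002, 1479 and 1736 bp wide. All 6 lay inside the body of Dlgap1, which encodes a postsynaptic scaffold protein, 5 in an intron and 1 in an exon of the lincRNA Gm16952, whose start was 307 bp from its midpoint. A seventh region of Tgif1, at 139.6 kb, was left out of the cluster, and no region lay within 1 kb of the Tgif1 TSS.

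The other TALE genes with clusters were Meis2 and Pknox2, whose proteins bind DNA with Pbx and Hox partners. At Meis2 the regions lay in introns 43.8, 54.0 and 55.3 kb downstream of the TSS and were 2099, 1173 and 1111 bp wide, the 2 farthest being 147 bp apart. Counted as 1 region, these 2 would leave Meis2 with too few regions for a cluster. Meis2 also had a promoter region of 3217 bp and an intergenic region of 2512 bp at 204 kb. At Pknox2 the regions lay in introns at 40.1, 46.1 and 54.0 kb and were 1022, 589 and 1192 bp wide, with another intronic region, not clustered, at 93.0 kb and none within 1 kb of the TSS. Of 19 listed TALE and COUP-TF genes, 16 had a region, 9 a distal region and 3 a clustered one. Over all genes with a distal region, 101 of 3950 had a clustered one (2.56%), a share not matched for the number of distal regions per gene.

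Among cardiac transcription factors, clustered regions were assigned to Isl1 and Tbx20, both required for heart development. The Isl1 cluster (chr13:117285672-117314629) lay in intergenic DNA 186, 205 and 214 kb upstream of the TSS, with widths of 1153, 1140 and 1036 bp and gaps of 17813 and 7816 bp. None of its 31-base words was repeated in the genome, and its CpG frequency was 0.694 to 1.93 per 100 bp. Isl1 had 9 regions in all, the others being the promoter region (1709 bp wide) and regions 104, 134 and 266 kb upstream and 15.5 and 108.0 kb downstream. Its cluster therefore held 3 of 8 distal regions of the gene.

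The Tbx20/Herpud2 cluster on chromosome 9 had 2 regions assigned to Tbx20, at 170 and 182 kb upstream and 837 and 753 bp wide. The remaining region, 1213 bp wide, was assigned to Herpud2, an endoplasmic reticulum stress gene, at 177 kb. These 2 were the only distal regions of Tbx20, whose other regions were at its TSS (1630 bp) and 6.92 kb upstream. Of 22 listed cardiac transcription factors, 13 had a region, 8 a distal region and 2 a clustered one, beside 2.56% of all genes with a distal region. That 2.56% is not matched for the number of distal regions per gene. Of 16 listed pharyngeal and head mesoderm factors, 10 had a region, 7 a distal region and 0 a clustered one.

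Of 31 listed signaling ligands and receptors, 19 had a region, 14 a distal region and 3 a clustered one, beside 2.56% of all genes with a distal region. Here too the 2.56% is not matched for the number of distal regions per gene. The 3 were Jag1, Notch2 and Efnb2. Jag1, a Notch ligand, had its 3 clustered regions 99.2, 113.6 and 127.7 kb upstream in intergenic DNA, 828, 1666 and 920 bp wide. Notch2, a Notch receptor, had its regions in introns 11.1, 12.7 and 29.8 kb downstream, with widths of 893, 904 and 889 bp. These 3 were all the distal regions of Notch2, compared with 3 of 6 for Jag1. The first 2 of Notch2 were 725 bp apart, and counting them as 1 would leave Notch2 without a cluster. Efnb2, which encodes the Eph receptor ligand ephrin-B2, had clustered regions at 40.9, 51.4 and 62.8 kb downstream, 1018, 950 and 1759 bp wide, out of 10 distal regions that reached 1338 kb. All 3 genes had a region at the TSS, of 2252, 1287 and 2662 bp respectively.

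The listed neural adhesion gene Flrt3, whose membrane protein binds latrophilins and Unc5 receptors, had 13 distal regions. The 3 clustered ones lay 600.3, 607 and 618 kb upstream, inside introns of Macrod2, and were 630, 1395 and 1852 bp wide. Of 32 listed neural adhesion genes, 28 had a region, 24 a distal region and 1 a clustered one. Over the 13 gene lists, 4 had a clustered gene, and the other 9 had 2 to 11 genes with a distal region each and 0 with a clustered one. Over all genes, 101 of 3950 genes with a distal region had a clustered one (2.56%). That share counts genes with any number of distal regions, while a cluster needs 3 or more regions, so it is not matched to the listed genes. The lists are small, and no difference between lists was tested.

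Celf4, an RNA-binding protein of neurons, had the cluster with 5 regions, all in its introns on chromosome 18 at 74.8, 85.6, 100.8, 107.9 and 114.1 kb downstream of the TSS. The region at 74.8 kb had 69.1% GC and 10.0 CpG per 100 bp, the highest values among the 262 members, and the other 4 had 0.847 to 1.58 CpG per 100 bp. With 4 clustered regions each, Vgll4 (a TEAD cofactor), Tle1 (a Groucho corepressor), Spsb4 and Clmn had 4, 3, 4 and 4 of them in introns of their own. The Vgll4 regions lay 20.2, 32.7, 38.4 and 46.6 kb from the assigned TSS, the last one 24 bp from another annotated start of Vgll4. The Bmpr1b cluster, at 68.5 to 120.2 kb from the TSS of this BMP receptor, ran into the neighboring netrin receptor gene Unc5c, which held 2 of its regions in introns. The Lamp5 cluster lay inside Pak7, and the 4 regions of 4930486I03Rik were intergenic, 375 to 428 kb upstream.

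By span, the Trim27/Gpx5 cluster was followed by Itgb8/Macc1 (69005 bp), Tgif1 (57490 bp), Tle1 (56885 bp) and 4930486I03Rik (54573 bp). By covered bases it was followed by Zfp985 (7326), Tgif1 (7255), Mreg/Pecr (6806) and Fignl1/1700042O10Rik (6141). Itgb8 encodes an integrin subunit that activates TGF-beta, and its cluster was intergenic. The Fignl1/1700042O10Rik cluster lay within introns of Ddc, the dopa decarboxylase gene, which was not the assigned gene. Its regions lay 572, 5979, 8306 and 9607 bp from GENCODE starts of Ddc, so they are distal only to the assigned TSS. The widest member was 2819 bp (chr9:114435143-114437961, assigned to Ccr4), in an intron of Trim71, a target of the let-7 miRNA. It was followed by a region of 2549 bp assigned to Zfp985 and one of 2380 bp assigned to Hs2st1, in the Lmo4/Hs2st1 cluster.

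**Figure D3:**
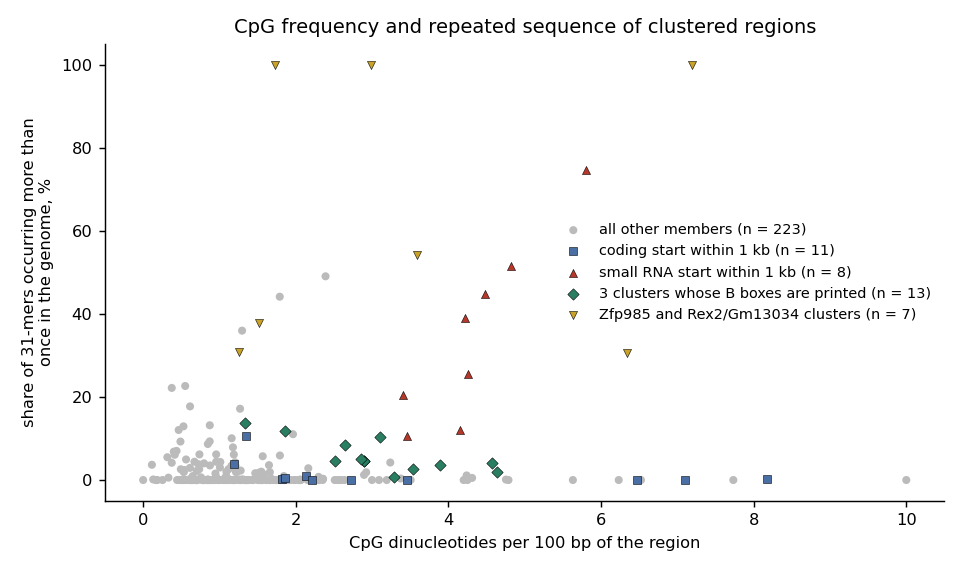
CpG frequency of each of the 262 clustered regions (x axis, per 100 bp) against the percent of its 31-base words that occur more than once in the genome (y axis), with symbols for members at small RNA starts, at coding starts, in the 3 clusters whose B boxes are printed, and in the Zfp985 and Rex2/Gm13034 clusters. The 3 regions of Rex2/Gm13034 sit at 100% repeated words, while the median over the 262 members is 0% with 1.34 CpG per 100 bp.

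Few members held mostly repeated sequence. The median share of repeated 31-base words was 0% in members and in the other distal regions, and more than 50% of the words were repeated in 6 members (2.29%, interval 1.05 to 4.91%) and in 173 other distal regions (2.67%, interval 2.31 to 3.09%). The 6 members were the 3 regions of Rex2/Gm13034, each at 100%, 1 region of Zfp985 and 2 of Tex14. The clusters of Rex2 and Zfp985, zinc-finger genes, both lie on chromosome 4, and the 4 Zfp985 regions had 30.5 to 54.2% repeated words. Regions of the same cluster shared at least 1 word in 8 of 79 clusters, and only in Tex14 did a region share more than 50% of its words with another.

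**Figure D4:**
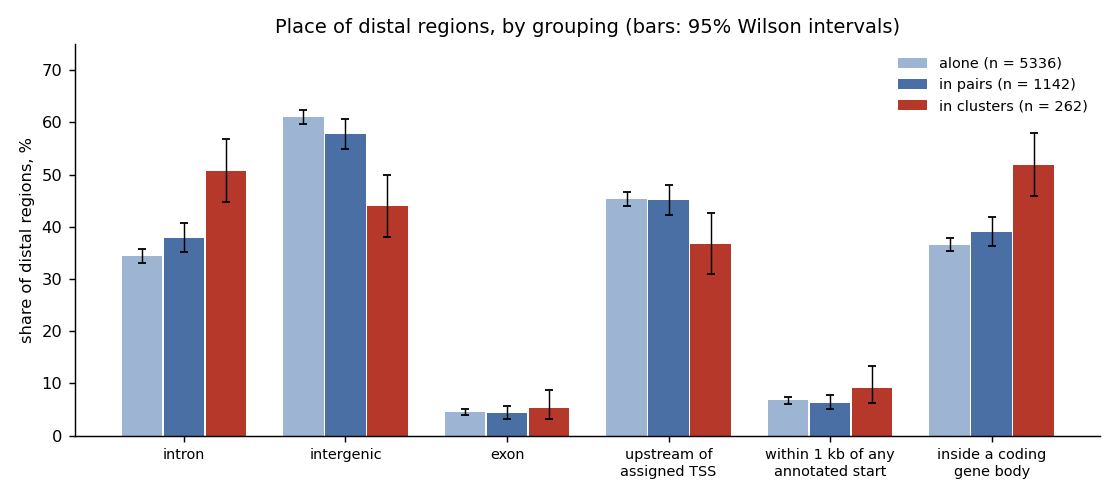
Share in percent of distal regions alone, in pairs and in clusters by the place of the midpoint, the side of the assigned TSS, and nearness to any annotated start. Error bars are 95% Wilson intervals. Clustered regions were in introns in 50.8%, against 34.4% of regions alone and 37.9% of those in pairs.

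Clustered regions lay more often in introns than the other distal regions did. Introns held 133 of 262 members (50.8%, interval 44.7 to 56.8%), compared with 2270 of 6478 other distal regions (35.0%, interval 33.9 to 36.2%), and intergenic DNA held 43.9% (interval 38.0 to 49.9%) against 60.5% (interval 59.3 to 61.6%). Exons held 14 members (5.34%) against 4.51%. The share in introns was higher for members on 13 of the 18 chromosomes with a cluster and lower on 5. Beyond 100 kb from the TSS it was 51.4% of 74 members (interval 40.2 to 62.4%) against 28.5% of 2476 others, and between 10 and 50 kb it was 50.0% of 110 members (interval 40.8 to 59.2%) against 39.4% of 2619 others. The intergenic share of members was 26.4% with a joining distance of 12.5 kb and 49.1% with 50 kb. It was 50.9% without regions within 10 kb of any GENCODE start. No test was made of these shares.

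Many clusters kept to 1 kind of place. All regions were intronic in 33 clusters and intergenic in 31, and 36 clusters lay inside the body of 1 coding gene. In 26 of these 36 the host gene was an assigned gene, as for Gli3, the zinc-finger effector of hedgehog signaling, with 3 intronic regions at 78.5, 93.0 and 107.5 kb, and for the BMP type I receptor gene Acvr1, at 16.5, 33.0 and 34.2 kb. The Acvr1 regions at 33.0 and 34.2 kb were 320 bp apart and lay 4647 and 5851 bp from another GENCODE start of Acvr1. In the other 10 of the 36 clusters the regions were assigned to another gene, chosen here after their values were seen. Regions assigned to Top2b lay in introns of Rarb, a retinoic acid receptor gene, those of Ptn in Dgki, those of Gm5136 in Syt1 and those of Gm5069/Stum in Itpkb. Over single regions, the host was the assigned gene for 64.7% of 136 members inside a coding gene (interval 56.4 to 72.2%) and for 64.9% of 2399 other distal regions (interval 63.0 to 66.8%).

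Members were upstream of the assigned TSS in 96 of 262 cases (36.6%, interval 31.04 to 42.6%), compared with 45.3% of the other distal regions (interval 44.1 to 46.5%). The share was lower in members on 12 of 18 chromosomes. With a joining distance of 50 kb it was 42.1% of members (interval 38.9 to 45.4%), an interval that includes the 45.3% above. All regions were downstream in 44 clusters and upstream in 23, and 12 clusters had both. A total of 56 clusters (70.9%, interval 60.1 to 79.7%) were assigned to 1 gene and 23 to 2 genes. Of the 101 assigned genes, 62 had a region within 1 kb of the TSS (61.4%, interval 51.6 to 70.3%), compared with 49.2% of 3849 genes whose distal regions were not clustered (interval 47.7 to 50.8%) and 57.8% of the 586 among them with 3 or more distal regions (interval 53.8 to 61.8%). The intervals of the first and the third share overlapped. These shares use the deposited TSS. Slc2a3, Gramd1b and Rxfp2 count as lacking such a region, although members lay 3, 82 and 151 bp from GENCODE starts of these genes. How often this holds for the other genes was not tested.

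Some members were promoters by the annotation of the same build, although the deposited TSS was over 10 kb away. A total of 24 members (9.16%, interval 6.23 to 13.3%) were centered at most 1 kb from a GENCODE start, compared with 6.68% of the other distal regions (interval 6.10 to 7.32%). Of these starts 11 were coding, 4 snRNA, 4 snoRNA, 3 lincRNA, 1 a processed transcript and 1 a pseudogene. Coding starts stood at 4.20% of members (interval 2.36 to 7.36%) and 4.43% of the others (interval 3.96 to 4.96%), and small RNA starts stood at 3.05% of members (interval 1.56 to 5.91%) against 0.540% (interval 0.389 to 0.750%), with all 8 in the U2 and U3 clusters. Within 10 kb of any GENCODE start lay 58 members (22.1%, interval 17.5 to 27.5%) and 17.7% of the other distal regions (interval 16.8 to 18.6%).

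Coding starts were found in 8 clusters. In the cluster assigned to Fam134b, 2 of 3 regions lay 44 and 12 bp from starts of Myo10, an unconventional myosin of filopodia. Regions assigned to Prickle1, a planar cell polarity gene, and Shank3 lay 309 and 147 bp from further starts of the same genes. Regions assigned to Rxfp2 and Foxj2 lay 180 bp from a start of Fry and 3 bp from a start of the glucose transporter gene Slc2a3, and 2 regions assigned to 1700110K17Rik lay 82 and 99 bp from starts of Gramd1b. A region assigned to Fignl1 lay 572 bp from a start of Ddc. The CpG frequency of the 11 regions ran from 1.19 to 8.18 per 100 bp.

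Members were somewhat wider and richer in GC than the other distal regions by their medians, with quartiles that overlapped. The median width was 1016.5 bp (quartiles 819 and 1268 bp) in members, 976.5 bp in pairs and 926 bp in regions alone, and members were wider on 14 of 18 chromosomes. Taken by cluster, 47 of 79 clusters (59.5%, interval 48.5 to 69.6%) had a median above that of the other distal regions, 935 bp. The median GC content was 48.0% against 46.7%, higher on 11 of 18 chromosomes, and the median CpG frequency was 1.34 against 1.24 per 100 bp, both below the 58.1% and 5.93 of regions within 1 kb of the TSS. Taken by cluster, the median was above that of the other distal regions in 46 of 79 clusters for GC (58.2%, interval 47.2 to 68.5%) and in 41 of 79 for CpG (51.9%, interval 41.1 to 62.6%), and like that for width both intervals include 50%. Among regions outside coding genes, the interval between the flanking coding genes had a median of 175 kb for 126 members and 351 kb for 4057 others. The quartiles overlapped, with 91704 and 544888 bp for members and 115605 and 926751 bp for others. Regions of 1 cluster between the same genes share 1 value, so the 126 members are not independent.

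**Figure D5:**
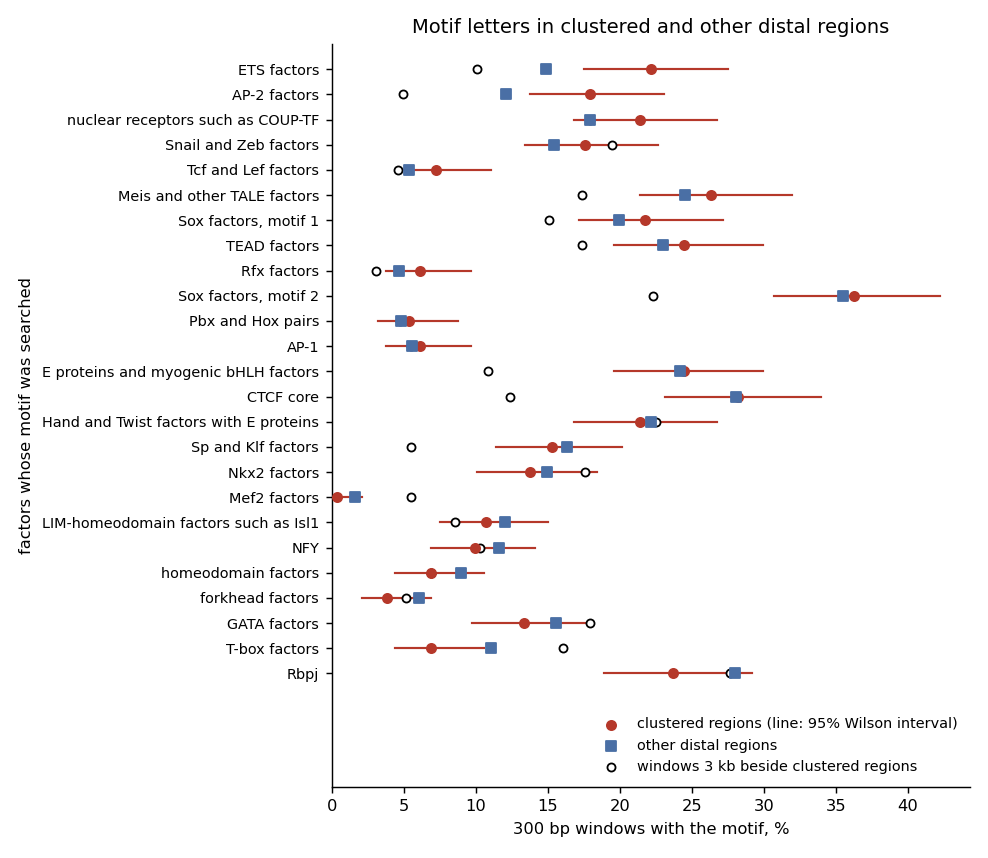
Percent of 300 bp windows with the letters of each motif named in the text, for clustered regions (red, with 95% Wilson interval), other distal regions (blue) and windows 3 kb to either side of clustered regions (open circles), ordered by the difference between the first and the second. The ETS and AP-2 rows are those where the red interval lies above the blue square, and the T-box row lies below it.

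A total of 26 motifs were searched on both strands in 300 bp at the midpoint. Beside the 8 above they included TAATTA (homeodomain), TGATTNAT (Pbx and Hox pairs), CAGCTG (E proteins), CAGGTG (Snail and Zeb), ACAATG and ACAAAG (Sox), GTAAACA (forkhead), AGGTCA (nuclear receptors), GCCNNNGGC (AP-2), CAGGAAG (ETS), TGACTCA (AP-1), CTTTGAT (Tcf and Lef), TGGGAA (Rbpj), GTTGCCA (Rfx), AGGNGGC (CTCF core), GGGCGG (Sp and Klf) and CCAATC (NFY). CAGGTG and AGGTGT overlap in 5 letters, and 1 site can count for both. For 2 of the 26 the interval in members lay above the share in the other distal regions, and for 1 it lay below, with no correction for the number of motifs. The windows compared were not matched for base composition.

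The ETS letters stood in 22.1% of members (interval 17.5 to 27.5%), 14.9% of other distal regions (interval 14.1 to 15.8%), 10.3% of regions within 1 kb of a TSS and 10.1% of the windows beside members. They occurred in at least 1 region of 46 of 79 clusters. The AP-2 letters stood in 17.9% of members (interval 13.8 to 23.0%) and 12.1% of other distal regions (interval 11.3 to 12.9%), with 32.3% at TSSs and 4.96% beside members. The T-box letters stood in 6.87% of members (interval 4.39 to 10.6%) and 11.1% of other distal regions (interval 10.3 to 11.8%), with 8.17% at TSSs and 16.0% beside members. In windows of 200 bp the ETS shares were 14.1% (interval 10.4 to 18.9%) and 10.5%, and the lower bound in members was then below the share of the others. In windows of 500 bp the T-box shares were 15.6% (interval 11.7 to 20.5%) and 18.2%, and the upper bound in members was then above the share of the others.

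Against the windows beside them, members had higher shares of 11 of the 26 motifs and lower shares of 2 by their intervals. The letters bound by E proteins (24.4% against 10.9%), the CTCF core (28.2% against 12.4%), ACAAAG (36.3% against 22.3%), TGACAG (26.3% against 17.4%) and CATTCC (24.4% against 17.4%) were among the higher. In the other distal regions these 5 stood at 24.2, 28.1, 35.5, 24.5 and 23.0%. The lower ones were AGGTGT and TAAAAATA, the latter in 1 member (0.382%) and 5.53% of the windows beside. GGGCGG, with only G and C, stood in 15.3% of members and 5.53% of the windows beside, and a part of base composition in these differences was not tested. CTAATG, the letters searched for Isl1 and its relatives, stood in 10.7% of members (interval 7.50 to 15.01%), 12.1% of other distal regions and 2.95% of regions at TSSs.

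Clusters were found on 18 chromosomes. Members made up 7.18% of the distal regions on chromosome 9 (25 of 348, interval 4.91 to 10.4%), 6.59% on chromosome 13 (23 of 349, interval 4.43 to 9.69%) and 1.71% on chromosome 5 (6 of 351, interval 0.786 to 3.68%). Chromosome 19 had 0 members among 92 distal regions, with a Wilson interval reaching 4.01%, X had 0 among 135, with an interval reaching 2.77%, and Y had 0 of 1. The chromosome 13 members included the Trim27/Gpx5, Btn2a2/Hist1h4h, Isl1 and Gli3 clusters.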

How the data were processed

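Samples of the ATAC-Seq series, from pharyngeal mesoderm and hearts, were grouped by the genotype label. The list deposited by the authors holds positions and distances in bp, with no score or count. According to the methods, the authors used bowtie2 for mapping to mm9, SAMtools to drop unmapped, unpaired and secondary alignments, and Picard 1.136 against duplicates, called peaks with MACS14 and no model, treated regions on the ENCODE blacklist with bedtools 2.15 and kept regions that overlapped between replicates by at least 1 bp. A region missed in 1 library is therefore absent from the list. How genes were assigned to these regions is not given in the sources used here. The number of columns of per-sample values left unused was 0.

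Identical rows were counted once, which left 17164 of 17432 rows. Sequence, starts and gene bodies came from NCBIM37 (the build mm9) with its GENCODE annotation, and 0 regions ended beyond their chromosome. The sign of the distance was the same as that from GENCODE for 96.1% of 4988 distal regions whose gene could be matched. A 31-base word counted as repeated if the genome holds it in more than 1 place. The joining rule and the word counts were tested on simulated data. Members and gene lists were chosen with earlier results of these data known. Items named were the 3 clusters with the most regions, the 5 with the longest span, the 5 with the most covered bases, the 3 widest regions, the genes with the most clustered regions, and listed genes with a clustered region. Other items, and both B box motifs, were chosen after the values were seen. The values of 1 motif and 1 gene are not reported here. Alternatives changed the joining distance, distance limit, cluster size, annotation, region width, repeats and motif window. Regions of 1 list are not replicates, so no test was made and shares carry 95% Wilson intervals. Python 3.11.15, numpy 2.4.6, pandas 2.3.3, scipy 1.17.1 and pysam 0.24.0 were used.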

Additional observations from a re-analysis of the deposited data

How the results depend on the processing

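The number of clustered regions was set by the rule. It was 1404 with at least 2 regions per cluster, 82 with at least 4, 126 beyond 50 kb from the TSS, 87 and 871 at joining distances of 12.5 and 50 kb, 169 when regions within 10 kb of any GENCODE start were left out, and 44 among regions of at least the median width. In the same order the number of clusters was 650, 19, 38, 28, 253, 52 and 14, and the share of distal regions in clusters was 20.8, 1.22, 3.14, 1.29, 12.9, 3.05 and 2.61%. With all rows as deposited that share was 4.44%. With at least 4 regions, the median width was 1096 bp, the GC content 48.8%, the intergenic share 30.5%, the upstream share 30.5% and the share of clusters with 1 gene 57.9%. At a joining distance of 12.5 kb these were 1119 bp, 49.1%, 26.4%, 25.3% and 82.1%. Among wide regions the width was 1392 bp, the intergenic share 27.3% and the upstream share 43.2%, and without regions near GENCODE starts the intergenic share was 50.9%. The share of members with any of the 8 motifs moved from 70.6% to 56.5% in 200 bp and 87.8% in 500 bp. That share was not computed for the other distal regions, so it cannot be called a trait of members. The AP-2 share of members moved to 12.2 and 23.7%, the ETS share to 14.1 and 30.5%, and the T-box share to 3.44 and 15.6%. In the other distal regions the AP-2 shares were 8.77 and 17.9%, the ETS shares 10.5 and 22.3%, and the T-box shares 7.52 and 18.2%. The cause was not tested, beyond the change in window length and in the number of regions.

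Of 100 alternative values 56 stayed inside the 95% interval of the reported value or, for the numbers of regions and clusters, within 1.5 times it, and 44 did not. Leaving out the 6 clusters with small RNA starts or with the looser B box in at least 2 regions, chosen after the data were seen, gave a median width of 994 bp, an intergenic share of 42.0%, an ETS share of 23.9% and a T-box share of 6.72%. No paired analysis was possible because the list pools the 3 wild-type libraries and no result comes from a test, and for the same reason no library could be left out. Depth and peak height are unknown, and a region that was not called in each of the 3 libraries is not in the list.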
